A study of Mus musculus with 5 samples.

Results

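Heme synthesis, iron handling and iron-sulfur cluster assembly are described here through 34 genes, listed by name for their role, with earlier results of these data known, out of 39179 genes listed in the count table. All 34 matched a symbol and all 34 passed the filter on low counts. The libraries hold poly(A) RNA from TER119-positive erythroid cells that were sorted from C57BL/6 mouse fetal liver at 14.5 days post conception, without treatment. The 3 control libraries came from embryos of genotype Csnk2b+/+ Vav+/Cre, and the 2 KO libraries came from embryos of genotype Csnk2bfl/fl Vav+/Cre, so both groups carried the Cre transgene. Cre was driven by the Vav1 promoter, which is active throughout the blood system, so the floxed gene was targeted in every blood lineage and not in erythroid cells alone. Csnk2b codes for CK2 beta, the regulatory subunit of a widely active serine/threonine kinase. Each title names a numbered embryo, without saying whether embryos were pooled, and p-values therefore cover only the variation among these 5 samples, which may be technical in part.

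Heme is an iron-containing ring that is made in 8 enzymatic steps shared between mitochondria and cytosol. A maturing erythroblast takes up transferrin-bound iron, reduces it in the endosome, carries it into the mitochondrion and inserts it into protoporphyrin as the last step. Iron-sulfur clusters are built in the same organelle, and iron that is not used is stored in ferritin or leaves the cell through ferroportin. Iron regulatory proteins tie these routes together by binding stem-loops, called iron-responsive elements, in the messenger RNAs of iron genes. At this stage of gestation, red cells are made mostly in the fetal liver.

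Totals ranged from 13187094 to 15366021 counts per library, and values below are in CPM, counts scaled to a common library total after TMM normalisation, unless another scale is named. Values are given in the order of replicate numbers throughout. The targeted gene, Csnk2b, gave 186, 186 and 169 CPM in the controls against 112 and 95.6 CPM in KO, a drop that passed the test (log2 fold change -0.80 ± 0.09, SE; adjusted p = 0.0018 in edgeR), and its RNA was still counted in the KO libraries. Control replicate 3 stood apart in that it held 1142 counts of 4 Y-linked genes, beside at most 2 in any other library, together with 547 CPM of Xist. The sorted cells carried the markers of their label: all 20 erythroid markers were counted in every library, with a summed level of 77586 to 92530 CPM in controls and 71135 to 88283 CPM in KO. Tspo2, counted among these markers, was the 1 member of that list that fell. Macrophage markers were present at a summed level of 273 to 324 CPM in controls and 200 to 247 CPM in KO. Of 19 tested, 5 were lower in KO by edgeR, beside 1.83% of all genes tested. Cd163 was at 0 counts in 2 controls and 1 KO library. Hepatocyte markers summed to 247 to 393 CPM in controls and 293 to 344 CPM in KO, with none of 14 tested past the threshold and 0 at an unadjusted p below 0.05. Granulocyte and mast cell markers summed to 545 to 783 CPM in controls and 631 to 747 CPM in KO. Early progenitor markers summed to 457 to 484 CPM in controls and 455 to 468 CPM in KO. Megakaryocyte markers summed to 114 to 122 CPM in controls and 124 to 161 CPM in KO. None of these lists held a marker past the threshold. Of 8 endothelial and stromal markers tested, 1 rose, beside 5.15% of all genes tested. In bulk RNA, fewer cells of a type and less RNA per cell cannot be told apart.

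Few of the heme and iron genes passed the test between KO and control. At a Benjamini-Hochberg adjusted p below 0.05 in edgeR's quasi-likelihood test over 13000 genes, 3 of the 34 fell in KO: Tmem14c, a mitochondrial protein that helps to bring the heme precursor protoporphyrinogen to its next enzyme, Steap3, the endosomal reductase of transferrin iron, and Slc40a1, which encodes the iron exporter ferroportin. That is 8.82% of the 34, beside 1.83% of all genes tested that fell and 6.98% that changed in either direction. None of the 34 rose, beside 5.15% of all genes tested. At an unadjusted p below 0.05, 9 of the 34 were lower, or 26.5%, beside 9.48% of all genes, and 2 were higher (Alas1 and Hmox2), or 5.88%, beside 14.3% of all genes. Both KO libraries lay below all 3 controls in 15 of the 34 genes, or 44.1%, whereas this held for 19.3% of all genes tested. Both lay above all controls in 4 genes, or 11.8%, against 21.9% of all genes tested. The median log2 fold change, KO over control, was -0.09 over the 34 genes and 0.01 over all genes tested, with 24 of the 34 below 0, or 70.6%, beside 47.5% of all genes tested. The 20 erythroid markers were shifted to a like extent, with a median of -0.11, 19 of 20 below 0, 6 with both KO libraries below all controls and 5 lower at an unadjusted p below 0.05, so the shift is not shown to be particular to the heme and iron genes. The 3 calls were alike in size, at 1.32-fold lower for Slc40a1, 1.31-fold for Tmem14c and 1.28-fold for Steap3.

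**Figure D1:**
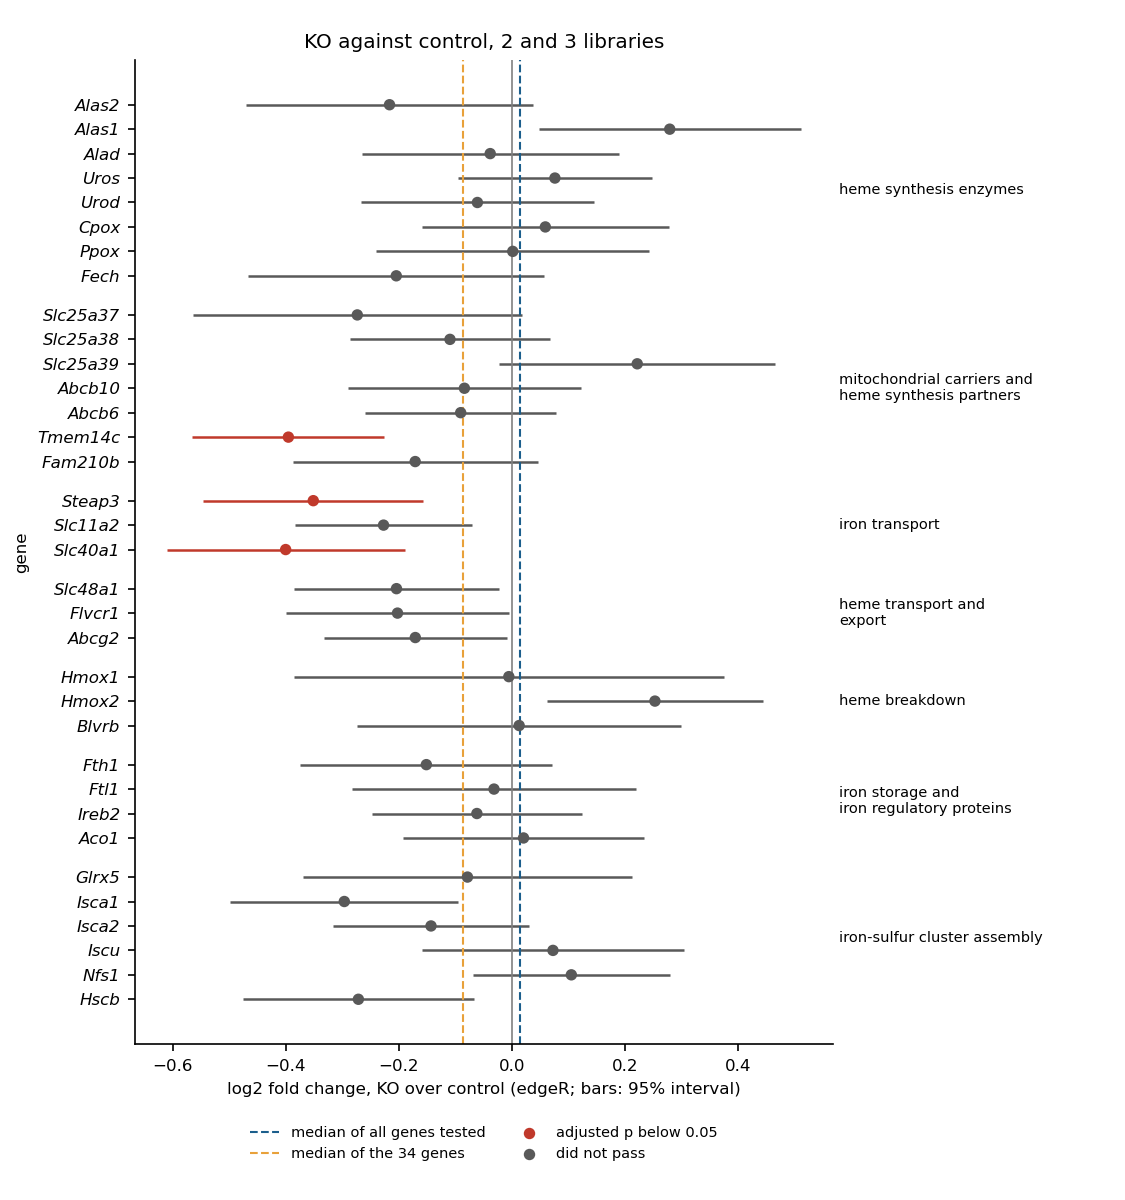
Log2 fold change of each of the 34 genes, KO over control, from edgeR, with 95% intervals as bars and genes grouped by role. Tmem14c, Steap3 and Slc40a1, in red, passed the threshold. All 6 genes of iron transport and of heme transport and export lie to the left of 0, beside 47.5% of all genes tested. The dashed lines mark the medians of -0.09 for the 34 genes and 0.01 for all genes tested.

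Leaving out any 1 control left none of the 34 genes past the threshold by edgeR, with adjusted p-values of 0.052 to 0.088 for Tmem14c, 0.066 to 0.15 for Steap3 and 0.095 to 0.14 for Slc40a1. The log2 fold changes stayed at -0.43 to -0.37, -0.41 to -0.29 and -0.43 to -0.36, and over the whole table the genes called lower numbered 31 to 61 in these fits, beside 238 with all libraries. Without control replicate 3, the library with Y-linked counts, the adjusted p-values were 0.052, 0.14 and 0.11. Without a filter on low counts, which adds genes to the adjustment, the adjusted p-values were 0.053, 0.12 and 0.10. Without KO replicate 2, Tmem14c alone passed (0.033), while Steap3 was at 0.053 and Slc40a1 at 0.12. Without KO replicate 1, 10 of the 34 were called lower and 1 higher, but there a lone KO library is assumed to vary like the controls, and 1247 genes in all were called lower.

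The 2 KO libraries did not move alike. KO replicate 2 was the lowest of the 5 libraries for 17 of the 34 genes, or 50.0%, whereas it was the lowest for 28.9% of all genes tested. KO replicate 1 was the lowest for 6 genes, or 17.6%, beside 16.1% of all genes tested. Among the controls, replicate 2 was the highest of the 5 libraries for 17 of the 34, a share that was not counted over all genes. It was the lowest for 1, or 2.94%, beside 19.1% of all genes tested. Without control replicate 2, 21 of the 34 had a log2 fold change below 0, beside 24 with all libraries. The summed level of the 34 genes was 28171, 30420 and 28936 CPM in the controls and 27849 and 25040 CPM in KO replicates 1 and 2, so both KO libraries lay below the controls, the first by little.

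**Figure D2:**
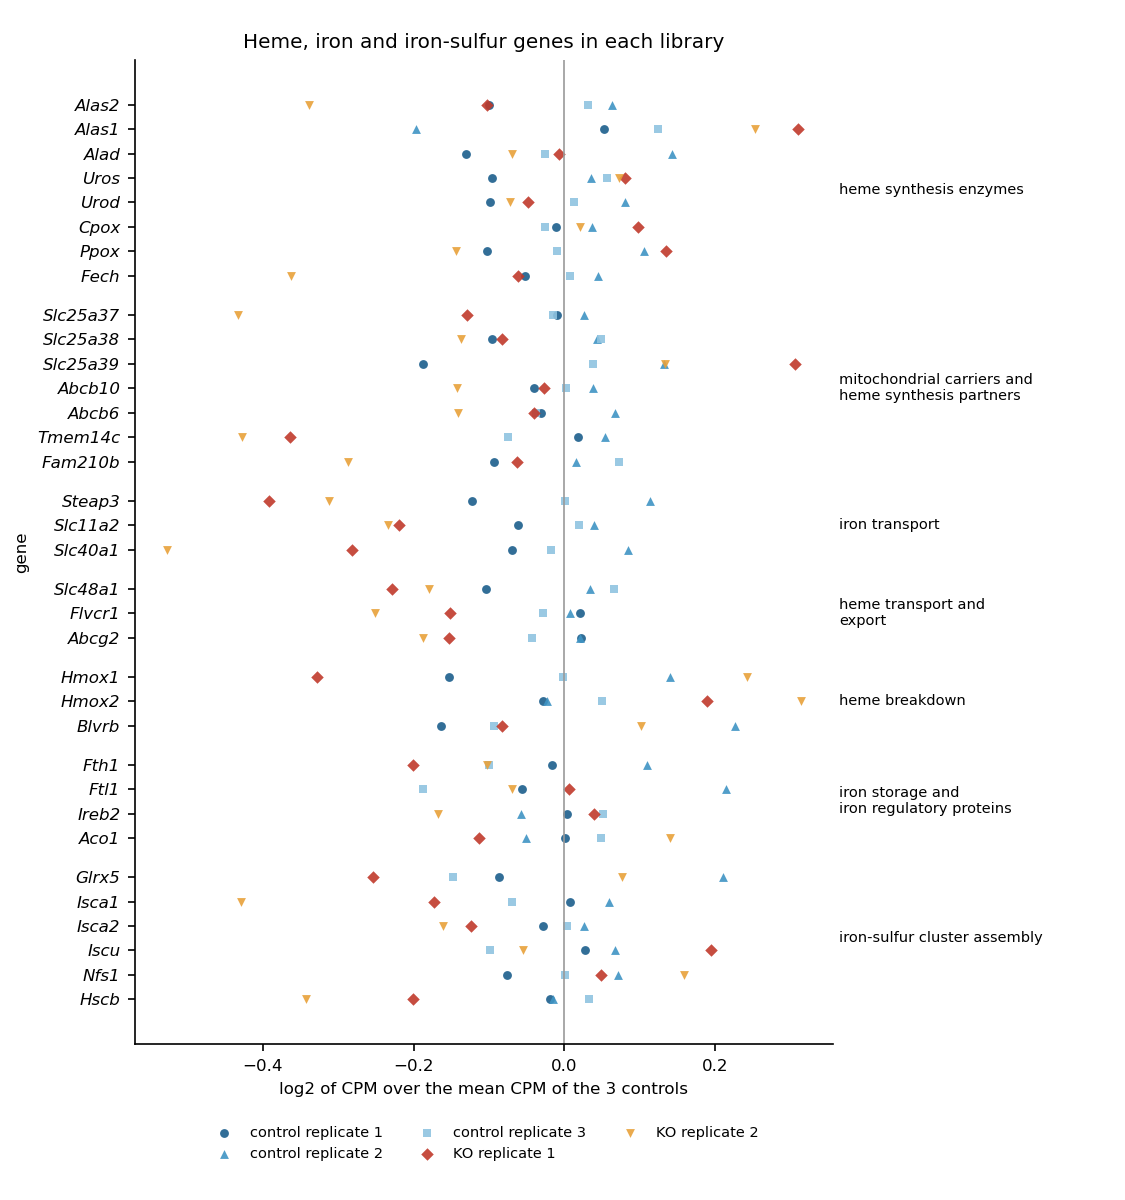
Level of each gene in each of the 5 libraries, as log2 of its CPM over the mean CPM of the 3 controls, with genes grouped by role. Tmem14c, Steap3, Slc11a2 and Slc40a1 show both KO libraries to the left of all controls, and KO replicate 2 is the farthest left for 17 of the 34 genes.

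Compared per length of exon, in CPM per kilobase over all annotated exons of a gene, the levels of the 34 genes spanned a wide range. Slc25a37, the mitochondrial iron importer mitoferrin-1, led in controls at 1340 ± 20.6 (SD, n = 3) CPM per kilobase, followed by Alas2, the erythroid form of the first heme enzyme, at 1176 ± 69.1. Alad, Urod, Fth1, Cpox and Abcb10 came next, between 565 and 400.1 CPM per kilobase. Urod at 491 ± 30.4, Fth1 at 464 ± 34.01 and Cpox at 452 ± 10.1 overlapped within their spread, so their order is not settled. At the other end, Flvcr1 was at 5.10 ± 0.09 and Alas1, the form of the first enzyme used in other tissues, at 6.00 ± 0.68 CPM per kilobase. The 6 iron-sulfur cluster genes lay between 70.5 ± 9.65 for Glrx5 and 13.6 ± 0.80 for Iscu. Uros, the lowest heme synthesis enzyme but Alas1, was at 79.9 ± 4.47, within the spread of Glrx5. These values use the length of all annotated exons, which overstates the length of the transcript in use for genes with long alternative ends.

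**Figure D3:**
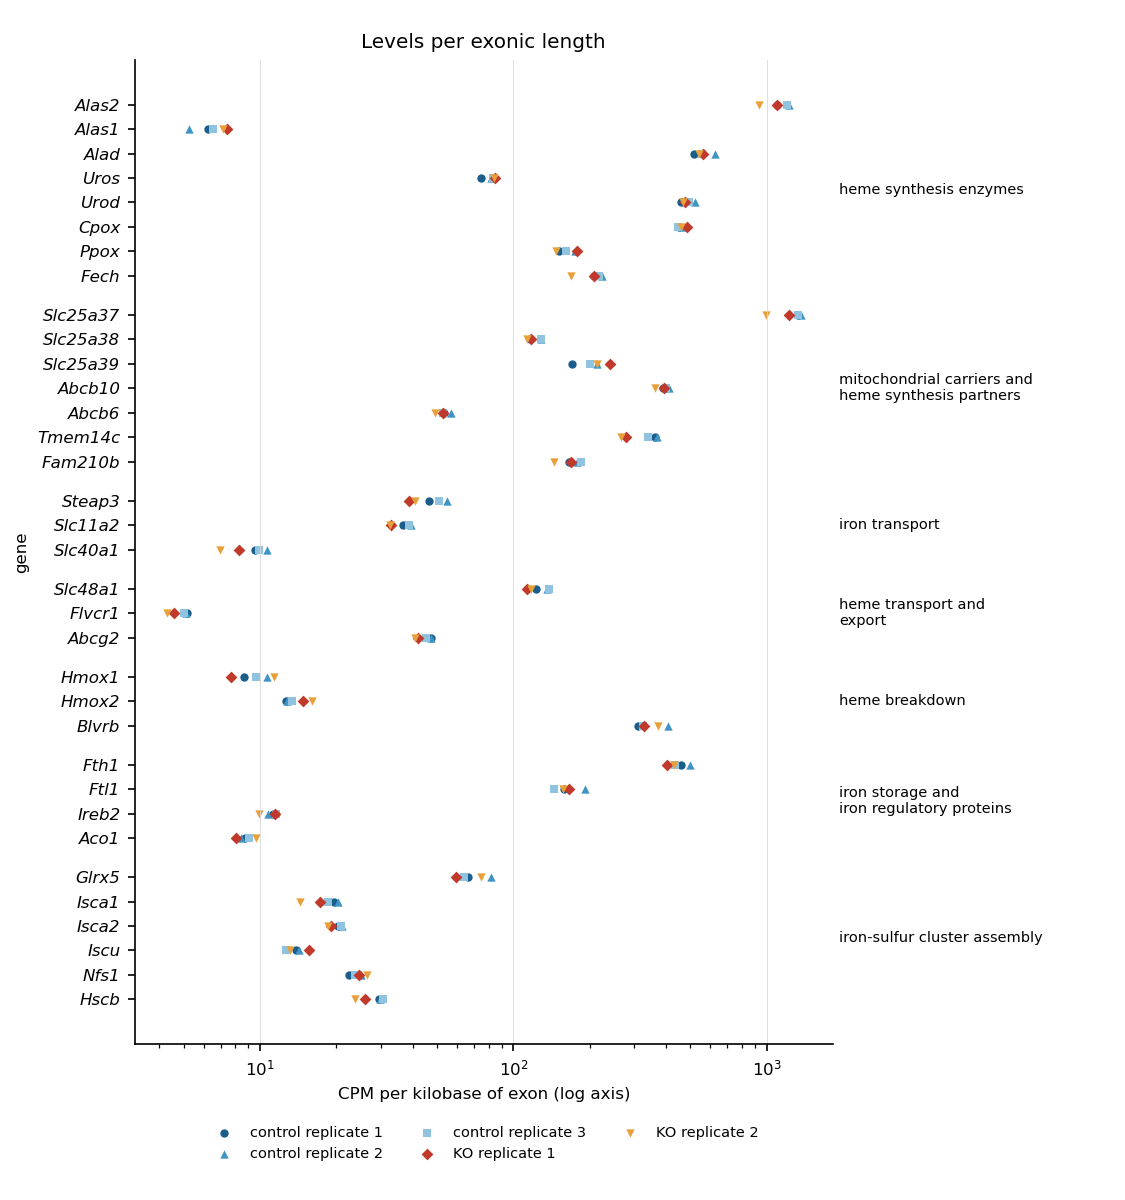
Level of each gene in each library in CPM per kilobase of exon, on a log axis. Slc25a37 and Alas2 lie highest in all 5 libraries, and Alas1, Flvcr1 and Aco1 are under 10 in all 5.

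Of the 8 heme synthesis enzymes, none passed the test in either direction in edgeR. At an unadjusted p below 0.05, 1, Alas1, was higher, beside 14.3% of all genes tested, and 0 were lower, beside 9.48%. The median log2 fold change was -0.02. Alas2 makes the first committed molecule of the pathway in red cells. It stood at 2638, 2952 and 2890 CPM in the controls and at 2632 and 2235 CPM in the KO libraries. Both KO values lay under the controls, the first only just, and its log2 fold change was -0.22 ± 0.11 (SE; 95% interval -0.47 to 0.04; adjusted p = 0.28 in edgeR). Alas1 went the other way without passing, with 38.4, 32.3 and 40.4 CPM in controls and 45.9 and 44.1 CPM in KO, a log2 fold change of 0.28 ± 0.10 (adjusted p = 0.14 in edgeR). Both KO values exceeded all controls, at a level far below that of Alas2. Per length of exon, the ratio of Alas2 to Alas1 was 176, 235 and 184 in the controls and 147 and 130 in KO.

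The middle steps of the pathway were close to level. Alad, which joins 2 molecules of aminolevulinate, had a log2 fold change of -0.04 ± 0.10 (95% interval -0.27 to 0.19). Uros, which closes the ring, was at 0.08 ± 0.08, with both KO libraries above all controls by a small margin, at 302 and 300.4 CPM against 297 CPM in the highest control. Urod, the next decarboxylase, was at -0.06 ± 0.09, and Cpox, the coproporphyrinogen oxidase, at 0.06 ± 0.10. Ppox, which oxidises protoporphyrinogen, was at 0.00 ± 0.11, with 809 CPM in KO replicate 1 and 667 CPM in KO replicate 2, values that enclosed all 3 controls. The 95% intervals of these 5 genes all lay within -0.27 and 0.28. Fech, the ferrochelatase that inserts iron as the last step, was at 2889, 3090 and 3011 CPM in controls and at 2871 and 2332 CPM in KO. As with Alas2, KO replicate 1 was just under the lowest control and KO replicate 2 well under it, and the log2 fold change was -0.20 ± 0.12 (adjusted p = 0.32 in edgeR). Alas2 and Fech passed in the fit without KO replicate 1 and in no other alternative. The exons of Alas2 and Ppox overlap those of Apex2 and B4galt3 on the opposite strand, which were at 29.6 to 36.7 CPM and 38.2 to 50.8 CPM, and the sources used here do not state whether the counting used strand.

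Among 7 mitochondrial carriers and partners of heme synthesis, Tmem14c fell and 6 did not pass. Tmem14c (ENSMUSG00000021361) lies on the plus strand of chromosome 13 from 41016292 to 41022586 in mm10. It stood at 330, 339 and 310 CPM in the controls and at 254 and 243 CPM in KO, so the groups were apart by more than the range within either. The control mean was 326 ± 14.8 CPM (SD, n = 3), the KO mean 248 ± 7.75 CPM (SD, n = 2), and the log2 fold change was -0.40 ± 0.07 (95% interval -0.56 to -0.23; adjusted p = 0.016 in edgeR). Tspo2, an erythroid member of the translocator protein family, is not one of the 34 but belongs to the list of other heme pathway genes. It was at 254, 288 and 263 CPM in controls and 181 and 171 CPM in KO, and it fell, with a log2 fold change of -0.61 ± 0.08 (adjusted p = 0.0033 in edgeR), a call that held in all 12 alternatives.

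Slc25a37, the most abundant of the 34, was at 8010, 8209 and 7982 CPM in controls and at 7376 and 5974 CPM in KO. Both KO libraries lay below the narrow range of the controls, but they differed from each other by more than KO replicate 1 differed from the controls. Its log2 fold change was -0.27 ± 0.13 (95% interval -0.56 to 0.02; adjusted p = 0.24 in edgeR). Abcb10, an inner membrane transporter that binds mitoferrin-1, was at -0.08 ± 0.09, and Abcb6, a porphyrin transporter, at -0.09 ± 0.07. Slc25a38, which brings in glycine for the first step, was at -0.11 ± 0.08, and Fam210b, a mitochondrial membrane protein of maturing erythroid cells, at -0.17 ± 0.10. Slc25a39, which imports glutathione, was the only 1 of the 7 above 0, with 471, 588 and 551 CPM in controls, 664 and 589 CPM in KO and a log2 fold change of 0.22 ± 0.11 (adjusted p = 0.25 in edgeR). Its lower KO value barely exceeded the highest control.

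Iron transport held the other calls, and all 3 of its genes had both KO libraries below all controls, beside 19.3% of all genes tested. Steap3 (ENSMUSG00000026389; chromosome 1, 120190757 to 120272705, minus strand) reduces ferric iron in the endosome so that it can leave. It was at 266, 313 and 290 CPM in controls and at 221 and 233 CPM in KO, and the log2 fold change was -0.35 ± 0.09 (95% interval -0.55 to -0.16; adjusted p = 0.043 in edgeR). The gap between the groups, 233 to 266 CPM, was smaller than the range of the controls. Slc11a2, the transporter DMT1 that carries the reduced iron out of the endosome, was at 233, 250.5 and 247 CPM in controls and at 209 and 207 CPM in KO. The KO values lay close together and under all controls, with a log2 fold change of -0.23 ± 0.07 (95% interval -0.38 to -0.07; adjusted p = 0.086 in edgeR). Tfrc, the transferrin receptor that starts this route, is not one of the 34 and is named here after its values were seen. It was at 3671, 3425 and 3543 CPM in controls and at 3062 and 2590 CPM in KO, with a log2 fold change of -0.33 ± 0.11 (adjusted p = 0.11 in edgeR; DESeq2 adjusted p = 0.0085). Other genes of the transferrin route did not share this: Tfr2, a second transferrin receptor, had a log2 fold change of -0.01, Exoc6, a vesicle exocyst subunit, one of 0.08 and Snx3, a sorting nexin, one of -0.08, each with overlapping groups.

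Slc40a1 (ENSMUSG00000025993; chromosome 1, 45908068 to 45926523, minus strand) is the only known cellular iron exporter. It was at 86.02, 95.7 and 89.2 CPM in controls and at 74.3 and 62.7 CPM in KO, with KO replicate 2 the farther from the controls. The control mean was 90.3 ± 4.95 CPM (SD, n = 3) and the KO mean 68.5 ± 8.25 CPM (SD, n = 2), a log2 fold change of -0.40 ± 0.09 (95% interval -0.61 to -0.19; adjusted p = 0.036 in edgeR). Ferroportin is abundant in macrophages as well as in erythroblasts. Of 19 macrophage markers tested, 14 had both KO libraries below all controls, beside 19.3% of all genes tested. The 5 that fell, beside 1.83% of all genes tested, were Cd5l, Adgre1, Marco, Vcam1 and C1qc. The summed level of the macrophage markers, Lyz2 included, was 283, 273 and 324 CPM in controls and 247 and 200 CPM in KO. The KO libraries had the same order as for Slc40a1. The controls did not, as replicate 2 had the lowest sum and the highest Slc40a1. Lyz2, the most abundant marker, was also lowest in control replicate 2, at 96.6, 84.8 and 112 CPM. It did not pass and was at 88.9 and 61.04 CPM in KO. Of the 5 that fell, Cd5l, Adgre1, Marco and C1qc were highest in control replicate 2, as Slc40a1 was, and Vcam1 was lowest there. Cd5l was at 15.9, 18.6 and 16.8 CPM in controls, and Vcam1 at 7.59, 7.16 and 8.11 CPM. C1qb, Mrc1, Axl and Maf had the reverse order of KO libraries. The part of macrophages in the difference of Slc40a1 was not tested.

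**Figure D4:**
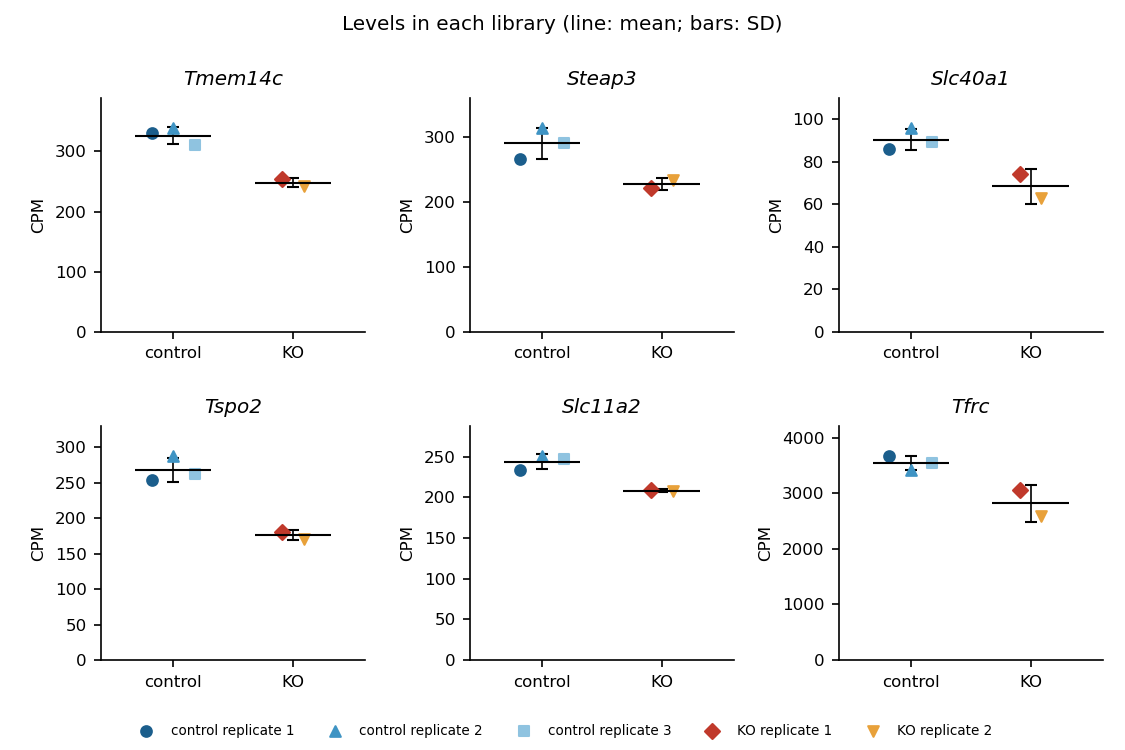
CPM in each library for Tmem14c, Steap3, Slc40a1, Slc11a2 and, from the lists of other pathway genes, Tspo2 and Tfrc, with lines at the mean and bars of 1 SD, on axes that start at 0. In each panel both KO libraries lie below all 3 controls, by the widest margin relative to the level for Tspo2, at 181 and 171 CPM against 254 CPM in the lowest control.

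Start regions of Tmem14c and Steap3 are shown because these 2 fell and have an entry in the table of promoters, and that of Alas2 because it is the classic erythroid gene of the pathway and did not pass. Sequences are from RefSeq on GRCm38.p6, the stretch of the 250 bases before the most upstream start listed that holds no annotated exon. Capitals mark matches, on either strand, to the GATA pattern AGATAA or to the CACCC-box-like pattern CCNCNCCC, and the patterns do not overlap each other here. In the order printed, the stretches are chr13:41016000-41016249 on the plus strand, chr1:120271083-120271330 on the minus strand, which lies inside the longer GENCODE span of Steap3, and chrX:150547167-150547374 on the plus strand.
Tmem14c: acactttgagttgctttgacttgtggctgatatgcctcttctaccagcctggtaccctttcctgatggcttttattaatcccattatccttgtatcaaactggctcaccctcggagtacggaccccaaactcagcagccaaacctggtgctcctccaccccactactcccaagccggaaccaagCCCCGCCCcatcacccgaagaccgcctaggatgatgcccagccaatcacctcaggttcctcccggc
Steap3: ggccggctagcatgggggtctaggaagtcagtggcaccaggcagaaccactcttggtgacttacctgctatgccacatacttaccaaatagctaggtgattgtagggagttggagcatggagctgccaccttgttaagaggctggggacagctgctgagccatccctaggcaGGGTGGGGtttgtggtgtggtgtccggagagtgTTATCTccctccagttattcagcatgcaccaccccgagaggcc
Alas2: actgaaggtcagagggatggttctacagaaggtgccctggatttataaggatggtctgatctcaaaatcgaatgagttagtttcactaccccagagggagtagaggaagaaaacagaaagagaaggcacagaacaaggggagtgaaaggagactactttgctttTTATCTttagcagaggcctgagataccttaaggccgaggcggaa
The GATA pattern ends 40 bases before the start in Steap3 and 81 bases before it in Alas2, and is not among these letters for Tmem14c. Over the full 250 bases, AGATAA was found for 3 of the 26 genes with an entry (Alas2, Steap3 and Isca2), or 11.5%, and for 11.4% of all 27025 genes in the table. CCNCNCCC was found for 19 of the 26, or 73.1%, and for 48.5% of all genes. Where a gene has several starts, a match at any of them was counted. Fech, Slc25a37, Slc11a2, Slc40a1, Slc48a1, Hmox1, Iscu and Hscb have no entry.

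The 3 genes of heme and porphyrin transport also had both KO libraries below all controls, beside 19.3% of all genes tested. None of them passed the test in edgeR, while all 3 were lower at an unadjusted p below 0.05, beside 9.48% of all genes tested. Slc48a1, which moves heme from lysosomal compartments to the cytosol, was at 339, 373 and 381 CPM in controls and at 311 and 322 CPM in KO (log2 fold change -0.20 ± 0.08, adjusted p = 0.16 in edgeR). Abcg2, which exports porphyrins, was at 386, 386 and 369 CPM and at 342 and 334 CPM (-0.17 ± 0.07, adjusted p = 0.19 in edgeR). Flvcr1, known as a heme exporter and choline transporter, was at 26.8, 26.5 and 25.9 CPM and at 23.8 and 22.2 CPM (-0.20 ± 0.09, adjusted p = 0.20 in edgeR). The 3 log2 fold changes were alike in size, and the intervals of each came close to 0. The exons of Slc48a1 overlap those of Hdac7 on the opposite strand, at 46.3 to 57.6 CPM.

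The heme breakdown genes did not follow this direction. Hmox1, the inducible heme oxygenase, was at 15.2, 18.6 and 16.9 CPM in controls and at 13.5 and 19.96 CPM in KO. The KO libraries lay on either side of all controls, and the log2 fold change was -0.01 ± 0.17 with a 95% interval of -0.39 to 0.38. These values rest on 175 to 308 counts per library. Hmox2, the constitutive heme oxygenase, was at 28.2, 28.3 and 29.8 CPM in controls and at 32.7 and 35.7 CPM in KO, both above all controls, with a log2 fold change of 0.25 ± 0.08 (adjusted p = 0.11 in edgeR). The exons of Hmox2 overlap those of Cdip1 on the opposite strand, at 16.9 to 22.1 CPM, which had a log2 fold change of 0.32 (adjusted p = 0.085 in edgeR). Without knowledge of strand, reads over the overlap cannot be told apart between Hmox2 and Cdip1. Blvrb, a biliverdin and flavin reductase that is abundant in red cells, was at 862, 1129 and 905 CPM in controls and at 912 and 1036 CPM in KO, within the range of the controls.

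Ferritin, the iron storage shell, is built from heavy and light chains. Fth1, the heavy chain with ferroxidase activity, was at 1590, 1735 and 1501 CPM in controls and at 1399 and 1498 CPM in KO. KO replicate 2 lay just under the lowest control, and the log2 fold change was -0.15 ± 0.10 (95% interval -0.37 to 0.07; adjusted p = 0.39 in edgeR). Ftl1, the light chain, was at 212, 256 and 194 CPM in controls and at 221 and 210 CPM in KO, inside the range of the controls. A processed copy named Ftl1-ps1 was counted at 33.97 to 62.6 CPM, so some reads may be divided between the copies. Per length of exon, Fth1 exceeded Ftl1 by 2.90, 2.62 and 2.99-fold in the controls and by 2.44 and 2.75-fold in KO. Ireb2 and Aco1 encode the RNA-binding iron regulatory proteins, the latter also a cytosolic aconitase. Ireb2 had a log2 fold change of -0.06 ± 0.08 and Aco1 one of 0.02 ± 0.09, with the KO values of Aco1, 36.2 and 43.2 CPM, on either side of all controls.

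The elements these proteins bind are shown because they join heme synthesis, storage, export and uptake in 1 regulatory scheme. In the 5′ untranslated region the element holds back translation when iron is short, and in the 3′ untranslated region it protects the messenger RNA. The pattern searched was a C, 5 bases of any kind and the loop CAGTGN, followed by 5 bases that pair with the 5 before the loop, G-T pairs allowed, on the sense strand of GENCODE M21 transcripts. Capitals mark the 6-base loop.
Alas2, 5′: ttggttcgtcctCAGTGCagggcaacagg
Fth1, 5′: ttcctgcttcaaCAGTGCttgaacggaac
Ftl1, 5′: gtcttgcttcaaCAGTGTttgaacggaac
Tfrc, 3′, first of 4: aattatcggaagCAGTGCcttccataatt
The sites lie at chr19:9982732-9982760 on the plus strand for Fth1, chr7:45459779-45459807 on the minus strand for Ftl1 and chr16:32631219-32631247 on the plus strand for Tfrc, in mm10, and that of Alas2 spans a splice junction. The 29 bases of Fth1 and Ftl1 are identical at 26 positions, and those of Fth1 and Alas2 at 14. Such a match was found in a 5′ untranslated region of 31 of 21181 genes, or 0.146%, and in a 3′ untranslated region of 144 of 21824 genes, or 0.660%, so 5′ matches are rare. Of 4 Slc40a1 transcripts with an annotated 5′ region, 1 also matched there, and the counts do not separate Slc40a1 transcripts with and without the element.

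Of 9 transcripts known for such an element, 1, Slc40a1, fell and none rose. All 9 had a log2 fold change below 0, with a median of -0.19, and 5 had both KO libraries below all controls, beside 47.5% and 19.3% of all genes tested. Among the 34 genes these shares were 70.6% and 44.1%. Of the 20 erythroid markers, 19 were below 0 and 6 had both KO libraries below all controls. Alas2, Fth1, Ftl1, Slc40a1 and Slc11a2 are counted among the 34 as well. The shift is thus not shown to be particular to transcripts with the element. Of the 3 with a shown 5′ site, Alas2 was at -0.22, Fth1 at -0.15 and Ftl1 at -0.03, and Tfrc, with 3′ sites, was at -0.33. RNA levels do not measure the translation that the 5′ element controls.

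None of the 6 iron-sulfur cluster assembly genes passed the test in edgeR. At an unadjusted p below 0.05, 2 were lower, beside 9.48% of all genes tested, and 0 were higher, beside 14.3%. Isca1, which acts in the later steps of cluster building, was at 208, 216 and 198 CPM in controls and at 184 and 154 CPM in KO. Both KO libraries lay under all controls, and its log2 fold change of -0.30 ± 0.09 had a 95% interval of -0.50 to -0.09 (adjusted p = 0.083 in edgeR; DESeq2 adjusted p = 0.048). Hscb, the co-chaperone that helps to hand over the new cluster, was at 26.8, 26.8 and 27.7 CPM in controls and at 23.6 and 21.4 CPM in KO (log2 fold change -0.27 ± 0.09, adjusted p = 0.11 in edgeR). Isca2, the partner of Isca1, was at 37.4, 38.9 and 38.3 CPM and at 35.05 and 34.1 CPM, a tight pair of groups with a log2 fold change of -0.14 ± 0.08 (adjusted p = 0.30 in edgeR). Glrx5, a glutaredoxin that carries clusters and is needed for erythroid heme synthesis, was at 244, 300.2 and 234 CPM and at 218 and 274 CPM, with the groups overlapping. Nfs1, the desulfurase that supplies sulfur, was at 0.11 ± 0.08 on the log2 scale, and Iscu, the scaffold, at 0.07 ± 0.10. Exons of Nfs1 overlap those of Romo1, at 8.95 to 13.3 CPM.

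Other genes of these routes, 92 in all with 74 passing the filter on low counts, were read from the same fit. Of the 74, 4 rose, 1 fell and 69 did not pass, with a median log2 fold change of 0.01. Over all genes tested, 5.15% rose and 1.83% fell, shares close to those among the 74. Of 16 other heme pathway genes tested, Tspo2 fell and Fdxr rose. Fdxr, the ferredoxin reductase that feeds electrons to cluster assembly and a known p53 target, is counted under both heme and iron-sulfur genes. It was at 9.26, 9.98 and 9.64 CPM in controls and at 13.1 and 18.01 CPM in KO (log2 fold change 0.70 ± 0.15, adjusted p = 0.025 in edgeR). It was the 1 gene of 28 iron-sulfur genes tested that passed. Among 11 heme-responsive regulators Maff rose, from about 4 to 5 counts per control library to 19 and 12 counts in KO, and the heme-regulated kinase Eif2ak1, the most abundant, had a log2 fold change of -0.14 ± 0.11 (adjusted p = 0.49 in edgeR).

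Of 20 other iron uptake, storage and export genes tested, Erfe and Pcbp4 rose and none fell, beside 5.15% and 1.83% of all genes tested. At an unadjusted p below 0.05 in edgeR, 3 of the 20 were lower, beside 9.48% of all genes tested, and 4 were higher, beside 14.3%. Erfe encodes erythroferrone, the erythroid hormone that lowers hepcidin and so raises the iron supply. It was at 21.1, 22.3 and 19.0 CPM in controls and at 40.6 and 47.4 CPM in KO, with the groups far apart, and it rose 2.12-fold (adjusted p = 0.00093 in edgeR), a call that held in all 12 alternatives. Pcbp4, of the family of RNA-binding proteins that includes iron chaperones, was at 5.95 to 6.45 CPM in controls and at 8.22 and 13.6 CPM in KO (adjusted p = 0.044 in edgeR). With any 1 control left out, the adjusted p of Fdxr was 0.087 to 0.12, that of Pcbp4 0.10 to 0.16 and that of Maff 0.075 to 0.093. Fdxr and Pcbp4 also did not pass without KO replicate 2 (0.12 and 0.23), nor Maff without KO replicate 1 (0.083). Hamp2, Cp, Ftmt and Scara5 were at 0 counts in all 5 libraries.

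**Figure D5:**
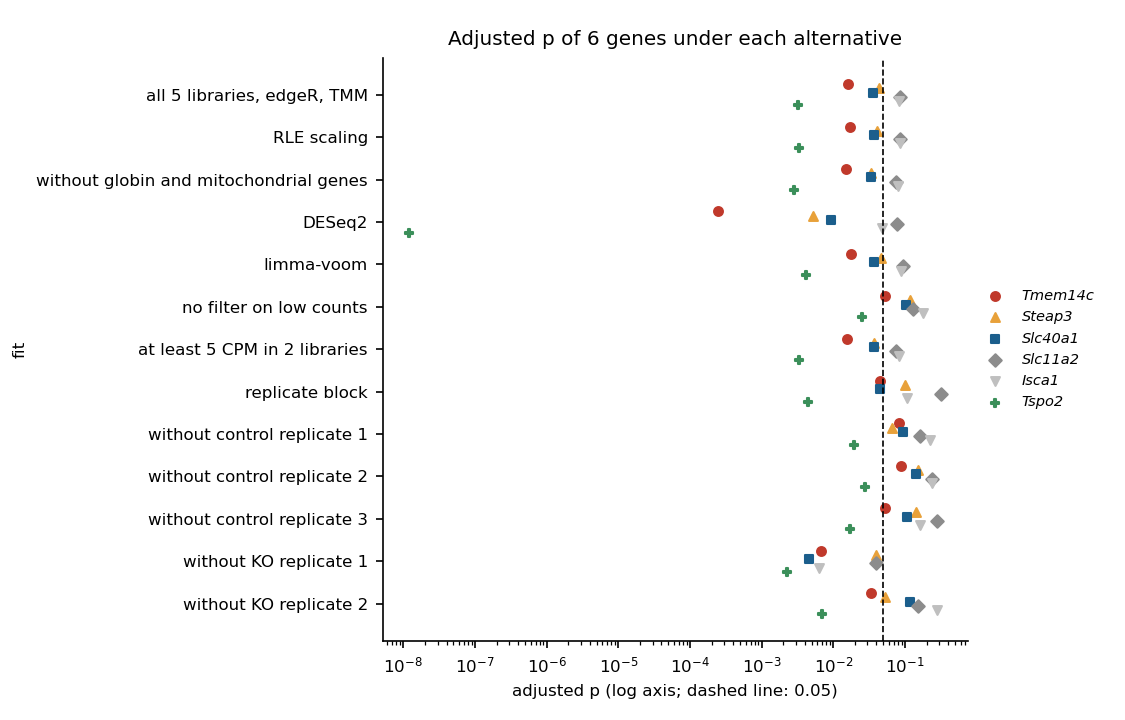
Adjusted p of Tmem14c, Steap3, Slc40a1, Slc11a2, Isca1 and Tspo2 in the fit with all 5 libraries and in 12 alternatives, on a log axis with a dashed line at the threshold. Tspo2 stays left of the line in every fit shown, whereas Tmem14c, Steap3 and Slc40a1 cross it when any 1 control is left out and without a filter on low counts.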

How the data were processed

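The authors deposited whole-number counts per Ensembl gene for each library, not normalised. The submitters' processing notes list the build mm10 and the tools STAR, Bowtie, HTSeq and cutadapt. Tool versions, strand use and the handling of multimapping reads: not given in the sources used here. Of 39179 identifiers, 37693 matched a symbol in GENCODE M21 (GRCm38, the assembly mm10 names), and the rest held 0.365% to 0.388% of counts.

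KO and control were compared with edgeR 4.0.16 in R 4.3.3 (TMM scaling, filterByExpr, glmQLFit and glmQLFTest, group as the only term), with Benjamini-Hochberg adjustment over 13000 genes and a threshold of 0.05. Standard errors came from the fold change and F statistic, and 95% intervals from the test's degrees of freedom. Reads carry no molecular identifiers, so counting errors understate the true error. In 5 simulations of counts of 13000 genes, 250 genes in all were given each size of change and 64000 were left unchanged. The KO against control fit called 4% of genes given a log2 change of 0.25, 46% at 0.5 and 77.6% at 1. Of all calls, 9.53% were false. These shares depend on how many genes change, and 6.98% of genes were called in the data. In the simulated setting, many changes of the size seen here would be missed.

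The 34 genes and the lists were chosen with earlier results of these data known. Named are all 34, Csnk2b and, of each pathway list, up to 3 genes by p in each direction past the threshold, or, where none passed, the 2 most abundant. Tfrc, Tfr2, Exoc6, Snx3, Eif2ak1, the macrophage markers and the genes at 0 counts were named after their values were seen. The fit was repeated with DESeq2 1.42.0, voom in limma 3.58.1, RLE scaling, globin and mitochondrial genes removed, all genes kept, a minimum of 5 CPM in 2 libraries, the replicate number as a block and each library left out.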

Additional observations from a re-analysis of the deposited data

How the results depend on the processing

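Of the 34 genes, 3 fell with RLE scaling, without globin and mitochondrial genes, with limma-voom and with at least 5 CPM in 2 libraries, the same 3 in each, and 4 fell with DESeq2. Without a filter on low counts, which tests 21077 genes, 0 of the 34 fell, 235 genes rose and 53 fell in all, and 1 other pathway gene rose. With the replicate number as a replicate block, 2 of the 34 fell (Steap3 at an adjusted p of 0.10) and 702 genes rose and 171 fell in all. Same-numbered libraries shared only a number, with correlations of their deviations of 0.0016 and 0.042. Leaving out 1 library gave 0 to 10 of the 34 lower and 0 to 1 higher, 210 to 1709 genes higher and 31 to 1247 lower in all, and 1 to 8 other pathway genes higher and 1 to 10 lower. Other pathway genes lower numbered 2 without globin and mitochondrial genes and 3 with DESeq2. Genes near 0 changed sign without passing: Ppox was at -0.0073 with RLE scaling, -0.013 without globin and mitochondrial genes, -0.0073 with DESeq2, -0.0017 with limma-voom, -0.0041 with the stricter filter and -0.0061 with the block, and Blvrb at -0.0038 without globin and mitochondrial genes and -0.022 with the block. With 1 library left out, log2 fold changes that crossed 0 ran from -0.100 to 0.038 for Alad, -0.0016 to 0.093 for Cpox, -0.17 to 0.13 for Ppox, -0.33 to 0.22 for Hmox1, -0.086 to 0.14 for Blvrb, -0.12 to 0.088 for Ftl1, -0.19 to 0.034 for Ireb2, -0.12 to 0.12 for Aco1, -0.26 to 0.055 for Glrx5 and -0.077 to 0.19 for Iscu. The cause of these differences was not tested. With 2 KO libraries, log2 changes of 0.25 and 0.5 were missed more often than called in the simulated counts.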
